A study of Sus scrofa with 22 samples.

Results

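The genes described here are the CD antigens and Toll-like receptors measured in pig tissue at 4 stages of growth. A gene was a member when its single annotated symbol was CD with a number and at most 1 further letter, or TLR with a number. CD74, the invariant chain of MHC class II, was left out. The rule found 45 genes among the 6765 different symbols on the array, 39 of them CD genes and 6 of them Toll-like receptors. They were measured by 77 probe sets, a probe set being the group of short array probes designed for 1 transcript. Of the 19 members with more than 1 probe set, the probe set with the highest mean log2(signal + 16) over all samples was used. CD5L met the rule by its symbol, although it encodes a secreted CD5-like protein.

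A CD number is given to a surface molecule that antibodies recognise on leukocytes, and many of these molecules are also made by endothelium, fibroblasts and muscle cells. The members therefore differ in kind: some are chains of the T cell receptor complex, while tetraspanins and complement regulators are found on most cells. Toll-like receptors are pattern receptors that bind microbial lipids, lipoproteins or nucleic acids. They pass the signal through the adaptor MYD88 or TICAM1 to NF-kB and interferon regulatory factors, which switch on cytokine genes. Skeletal muscle holds resident macrophages, capillary endothelium and few lymphocytes beside its fibres.

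All animals were offspring of German Landrace gilts given the adequate protein diet (AP) in gestation, so no group differed in diet, breed or genotype by the labels. They were taken at 94 days post conception (94 dpc, 6 animals) and at 1, 28 and 188 days post natum (1 dpn, 28 dpn and 188 dpn, with 6, 6 and 4 animals), and each gave 1 array. The tissue was labelled liver on every sample, whereas the series title names muscle. The design text gives offspring of 3 gilts per stage without tying animals to gilts, so some animals of every stage shared a dam. The tests below treat all animals as independent, and p-values over related animals can be too small.

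The labelled tissue was checked against marker genes. The 13 measured skeletal muscle fibre genes summed to a signal of 299000 to 398000 at 94 dpc, 414000 to 553000 at 1 dpn, 760000 to 847000 at 28 dpn and 720000 to 820000 at 188 dpn. The 13 measured hepatocyte genes summed to 7880 to 56600, 2530 to 12800, 2690 to 14300 and 2150 to 7590 at the same stages. APOB, the liver lipoprotein, had stage means of 83.8, 53.1, 52.7 and 54.7, and ALB, serum albumin, ran from 6.14 to 3173 between samples. The muscle fibre genes were thus bright in every sample, against the label. Of the 13 hepatocyte genes, 1, 1, 2 and 3 had a mean below background at the 4 stages, and the others were above it. As background, fibre genes were called higher at 28 dpn than at 94 dpc in 13 of 13 cases, whereas after quantile normalization 4 were higher and 0 lower.

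Signals are linear array intensities that had been scaled so that the trimmed mean of each array was 500. Background was taken as a signal of 69.7: 95% of the readings of 23 controls for targets missing from the samples were at or under it. Between 31.3 and 39.6% of probe sets lay below it on each array. Folds are ratios of stage means taken as log2(signal + 16). A fold written as "at least" sets the brighter stage against background on that same scale, because no animal of the other stage reached background, and it is less than the ratio of the plain signals. The 1 dpn arrays were not alike: in 4 of the 6 (replicates 2 to 5) the log2 ratio of the 5' to the 3' probe set of GAPDH was -1.59 to -2.84, against 0.19 and 0.20 in replicates 1 and 6 and -0.45 to 0.33 at the other stages. For the probe set used per gene, each result that involves 1 dpn is given with the 2 even arrays alone where that changes it. Results of second probe sets at 1 dpn rest on all 6 arrays and were not checked on the even ones.

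Of the 45 members, 32 had at least 1 stage mean above background (29 CD genes and 3 Toll-like receptors), and 15 were above it in all 22 samples. The other 13 lay below it at every stage mean of the probe set used. These were the T cell genes CD2, CD4 and CD247, the B cell genes CD27, CD38 and CD79B, the myeloid genes CD180, CD1E, CD300C and CD5L, and TLR1, TLR6 and TLR8. The stage means of these 13 ran from 4.22 (CD2 at 94 dpc) to 64.2 (CD79B at 1 dpn), and CD180, CD1E and TLR6 were below background in all 22 samples. A second probe set of CD247 was above background in all 6 animals at 28 dpn, with a mean of 104. By the probe sets used, CD2 and CD38 alone of these 13 passed the F test over the stages, and both were called higher at 28 dpn than at 94 dpc, on signals with no measurable fold.

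The question was which members differed between the stages. The step from 94 dpc to 1 dpn spans birth and is called the step at birth for short. Between any of the 4 stages, 25 of 45 members differed (55.6%, limma F test, adjusted p under 0.05), beside 51.4% of all 23999 probe sets. Of the 25, 24 were CD genes and 1 was TLR2. Among the 32 members with a stage mean above background, 23 differed, beside 65.8% of the 17778 probe sets with a stage mean above background. The highest stage mean of these 23 was at 94 dpc in 11 (CD9, CD34, CD46, CD58, CD59, CD81, CD82, CD99, CD164, CD200 and TLR2), at 1 dpn in 5 (CD3G, CD8B, CD47, CD63 and CD80), at 28 dpn in 5 (CD3D, CD8A, CD14, CD69 and CD209) and at 188 dpn in 2 (CD83 and CD93). The same split was not made over all probe sets, of which 21.7% were called lower and 10.9% higher at 1 dpn than at 94 dpc. In whole tissue, fewer cells of a type and less RNA per cell cannot be told apart.

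From 94 dpc to 1 dpn, 18 members changed (40% beside 32.7% of all probe sets), 7 to higher and 11 to lower signals (10.9 and 21.7% of all). Centring each array on its median made the split 8 higher and 7 lower. The median member changed by log2 0.11, beside -0.08 over all probe sets. From 1 dpn to 28 dpn 11 members changed (24.4% beside 22.3%), 10 higher and 1 lower (13.9 and 8.39% of all). After quantile normalization that split was 7 and 2, and 4 and 3 with centred arrays, with a median member change of 0.23 beside 0.10.

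From 28 dpn to 188 dpn 7 members changed (15.6% beside 11.8%), 2 higher and 5 lower (3.65 and 8.2% of all), or 2 and 2 with centred arrays. The median member changed by -0.33, beside -0.12. Set against 94 dpc, 17 members differed at 28 dpn (37.8% beside 30.3%), 11 higher and 6 lower (13.1 and 17.2% of all), with a median of 0.36 beside 0.02. At 188 dpn 9 members differed from 94 dpc (20% beside 36.2%), 1 higher and 8 lower (13.6 and 22.5% of all), or 4 and 7 after quantile normalization and 6 and 5 with centred arrays. The median there was 0.12 beside -0.07. The comparisons share stages and are not independent of one another. With centred arrays the median change of all probe sets was 0.18, -0.09, 0.08, 0.08 and 0.20 in the order given.

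**Figure D1:**
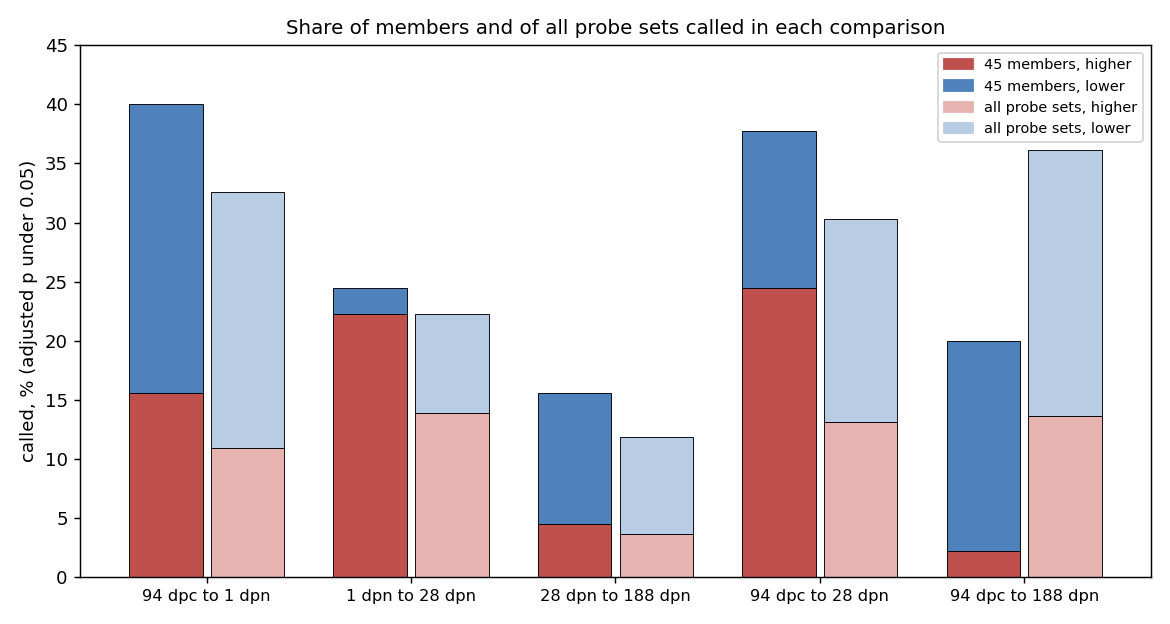
Share of features called in each comparison, in percent, for the 45 members and for all 23999 probe sets, with bars stacked by direction (higher or lower at the later stage). The members' bar is above that of all probe sets in the first 4 comparisons and below it from 94 dpc to 188 dpn, at 20 against 36.2%.

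The tetraspanins changed mainly around birth: 3 of the 5 (CD9, CD81 and CD82) fell from 94 dpc to 1 dpn, and CD9 and CD82 rose again by 28 dpn. Over all probe sets, 21.7% were called lower in the first step and 13.9% higher in the second. Tetraspanins are membrane proteins with 4 spans that gather integrins and other receptors into domains. CD9 and CD81 are known for their part in the fusion of muscle cells, CD82 for satellite cells, and CD63 for late endosomes and exosomes. CD53, a leukocyte tetraspanin, is described with the leukocyte genes.

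CD82 read 947 to 1535 (median 1150) at 94 dpc, 171 to 379 (median 313) at 1 dpn and 592 to 1148 (median 872) at 28 dpn, and 520, 668, 679 and 937 at 188 dpn. Every 1 dpn animal lay below every animal of the other stages. The signal fell 3.69-fold from 94 dpc to 1 dpn (log2 -1.88, SE 0.20, adjusted p = 3.98e-07) and rose 2.81-fold from 1 dpn to 28 dpn (log2 1.49, SE 0.20, adjusted p = 1.66e-05). With the even 1 dpn arrays alone the changes were -2.10 (adjusted p = 4.97e-05) and 1.71 (adjusted p = 0.000604), so the dip was present there too. The dip was also called in a second probe set of CD82, with stage means of 285, 87.3, 443 and 295. At 188 dpn CD82 stood 1.65-fold lower than at 94 dpc (log2 -0.72, SE 0.23, adjusted p = 0.0142). CD82 lost that last call without replicate 3 of 188 dpn (log2 -0.59, adjusted p = 0.0679), after quantile normalization (log2 -0.51), with each array centred on its median (log2 -0.45) or with the mean of its probe sets (log2 -0.34).

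CD9 read 2078 to 3285 (median 2554) at 94 dpc, 703 to 1633 (median 984) at 1 dpn and 2245 to 3018 (median 2509) at 28 dpn, and 2198, 2526, 2571 and 3068 at 188 dpn. Again the 1 dpn animals all lay below those of the other stages, whose ranges overlapped one another. CD9 fell 2.58-fold at birth (log2 -1.37, SE 0.18, adjusted p = 5.86e-06) and rose 2.55-fold by 28 dpn (log2 1.35, SE 0.18, adjusted p = 1.67e-05). Both calls held on the even arrays (log2 -1.10 and 1.08).

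CD81 read 7179 to 9605 (median 8585) at 94 dpc, 1567 to 5496 (median 1994) at 1 dpn and 3068 to 4573 (median 3852) at 28 dpn, and 1622, 1836, 2080 and 2362 at 188 dpn. All 94 dpc animals were higher than every animal of a later stage. CD81 fell 3.39-fold from 94 dpc to 1 dpn (log2 -1.76, SE 0.24, adjusted p = 6.11e-06), and by 188 dpn it was 4.27-fold lower than before birth (log2 -2.09, SE 0.26, adjusted p = 1.38e-06). The 2 even arrays at 1 dpn had a mean signal of 4528 and the 4 others 1849, and on the even arrays alone the fall was -0.92 (adjusted p = 0.00377). CD81 also fell from 28 dpn to 188 dpn (log2 -0.94, SE 0.26, adjusted p = 0.0214), with no overlap between those stages. CD81 lost that step's call without replicates 2 or 3 of 188 dpn (log2 -0.85 to -0.91, adjusted p 0.0613 to 0.0753) or with each array centred on its median (log2 -0.74).

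CD63, unlike CD9 and CD82, was lower at 28 dpn than at 1 dpn, and it read 19760 to 26910 (median 22390) at 94 dpc, 16540 to 29320 (median 27460) at 1 dpn and 12710 to 18030 (median 16210) at 28 dpn, and 18040, 18080, 19250 and 21580 at 188 dpn. It was high at 94 dpc and 1 dpn and lowest at 28 dpn. The fall from 1 dpn to 28 dpn was 1.57-fold (log2 -0.66, SE 0.16, adjusted p = 0.0042), or log2 -0.63 with the even 1 dpn arrays (adjusted p = 0.0265). From 94 dpc to 28 dpn CD63 fell by log2 0.53 without overlap (adjusted p = 0.0127), and by 1.11 after quantile normalization. That normalization also called CD63 lower at 1 dpn than at 94 dpc. CD151, a partner of laminin-binding integrins, read 1341 to 2965 (median 2371) at 94 dpc, 1891 to 3042 (median 2416) at 1 dpn and 1787 to 2978 (median 2214) at 28 dpn, and 1599, 1605, 1802 and 1884 at 188 dpn, with the 188 dpn animals below all 1 dpn animals but not below those of 94 dpc. CD151 did not pass the F test (adjusted p = 0.199).

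Beside the tetraspanins, 5 of the 8 measured satellite cell genes fell from 94 dpc to 1 dpn and 1 rose (3 and 2 with centred arrays), and 5 of the 8 measured fibroblast genes fell and 0 rose (4 and 1 with centred arrays). Their summed signals ran from 18100 to 22000 at 94 dpc and 11500 to 24600 at 1 dpn for satellite cell genes, and from 36400 to 45600 and 18100 to 28800 for fibroblast genes. Their part in the tetraspanin results was not tested.

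**Figure D2:**
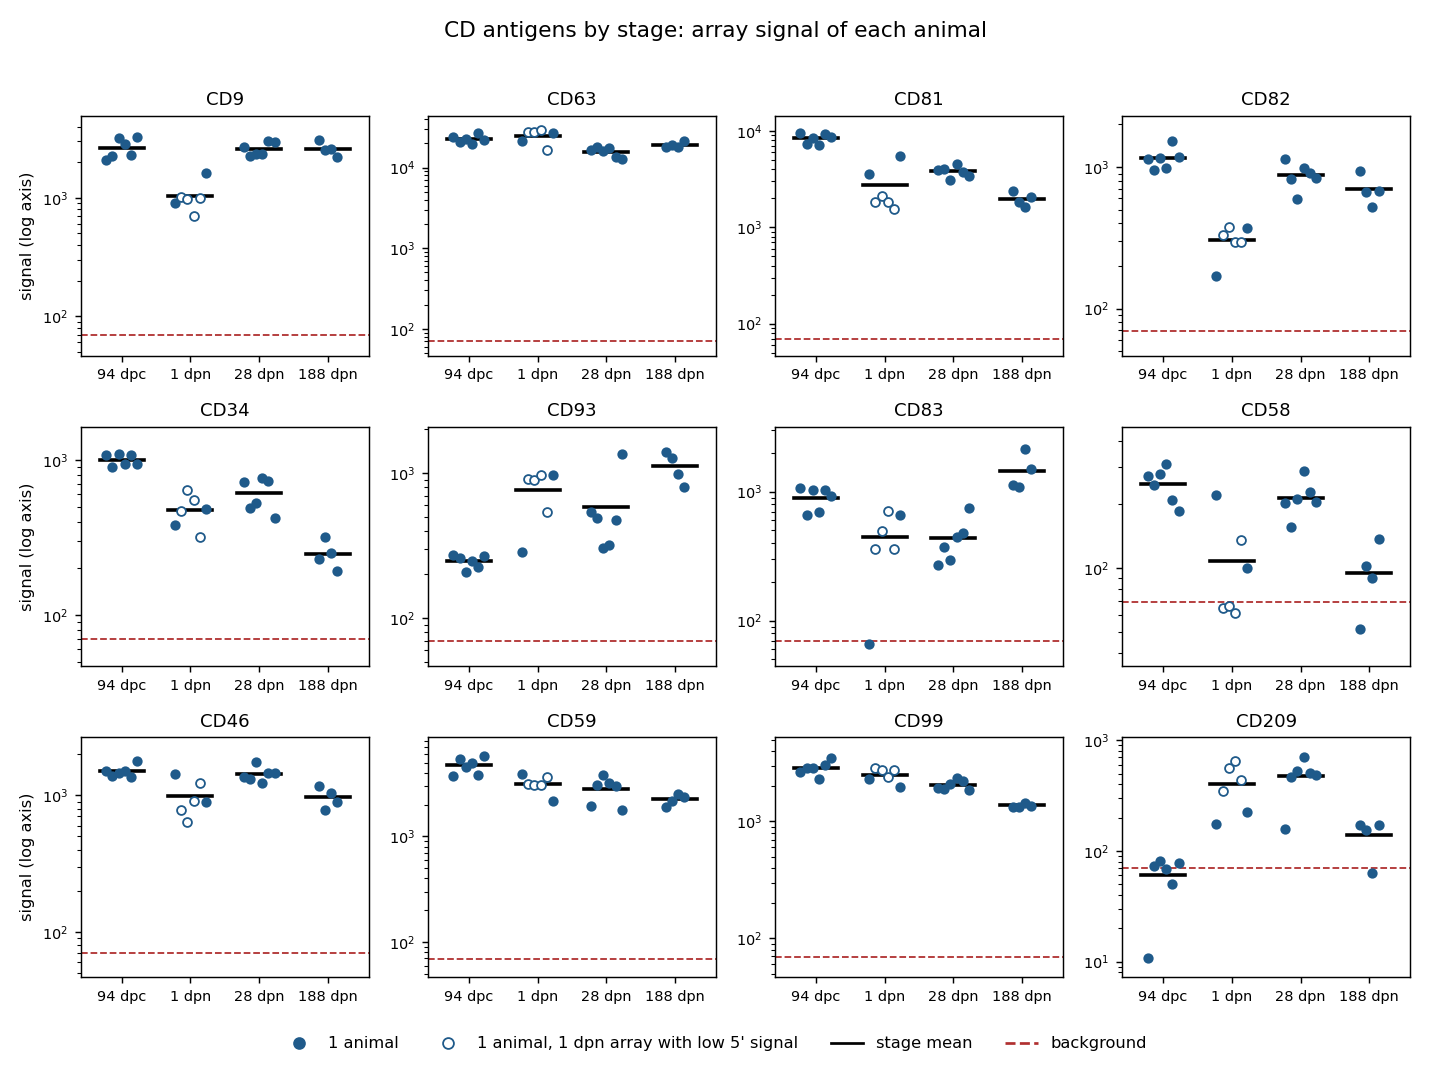
Signal (log axis, arbitrary array units) of 12 members in each of the 22 samples by stage; filled circles are samples, open circles the 4 arrays at 1 dpn with a low 5' GAPDH signal, the short bars are stage means, and the dashed line is the background of 69.7. The dip of CD9 and CD82 at 1 dpn, the falls of CD81 and CD34 and the rises of CD93 and CD209 after 94 dpc can be read sample by sample.

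The complement regulators and adhesion molecules were mostly highest before birth. Of 8 members of this kind, 5 fell and 1 rose from 94 dpc to 1 dpn, and 5 were lower and 0 higher at 188 dpn than at 94 dpc (4 and 1 after quantile normalization, 3 and 0 with centred arrays). Of all probe sets, 21.7% were lower and 10.9% higher in the first comparison, and 22.5 and 13.6% in the second. With centred arrays the count at birth was 2 lower and 1 higher, and on the even arrays it was 1 lower and 0 higher. From 1 dpn to 28 dpn 4 rose and 0 fell (13.9 and 8.39% of all probe sets), but with centred arrays 1 rose and 2 fell, and on the even arrays 1 rose and 0 fell. These counts take 1 probe set per gene, and CD47 and CD164 had probe sets that disagreed. CD46, CD55 and CD59 protect a cell's own membrane from complement, CD46 as a cofactor for cleaving it, CD55 by breaking up its convertases and CD59 by blocking the attack pore.

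CD59 read 3767 to 5777 (median 4742) at 94 dpc, 2153 to 3906 (median 3098) at 1 dpn and 1762 to 3820 (median 3043) at 28 dpn, and 1918, 2168, 2362 and 2546 at 188 dpn. It was highest before birth, and the 188 dpn animals did not overlap with the 94 dpc ones. The fall was 1.5-fold by 1 dpn (log2 -0.58, SE 0.20, adjusted p = 0.0268), 1.72-fold by 28 dpn (log2 -0.79, SE 0.20, adjusted p = 0.00416) and 2.08-fold by 188 dpn (log2 -1.05, SE 0.22, adjusted p = 0.000573). With the even arrays alone the change at birth was -0.68 (adjusted p = 0.1), and CD59 also lost this call without replicates 2 or 6 of 94 dpc or replicate 6 of 1 dpn (log2 -0.48 to -0.54, adjusted p 0.0597 to 0.066) or with each array centred on its median (log2 -0.32). A second CD59 probe set, at 1086, 266, 952 and 621, was called lower at 1 dpn (log2 -2.67) and higher again at 28 dpn (log2 2.47). With the mean of the probe sets the fall at birth was 1.63 and the difference between 94 dpc and 28 dpn, at -0.49, was not called.

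CD46 read 1353 to 1773 (median 1486) at 94 dpc, 634 to 1443 (median 901) at 1 dpn and 1232 to 1760 (median 1410) at 28 dpn, and 778, 892, 1033 and 1168 at 188 dpn. It was high at 94 dpc and 28 dpn and lower at 1 dpn and 188 dpn. CD46 fell 1.57-fold at birth (log2 -0.65, SE 0.18, adjusted p = 0.0072), rose 1.49-fold by 28 dpn (log2 0.58, SE 0.18, adjusted p = 0.0221) and was 1.55-fold lower at 188 dpn than at 94 dpc (log2 -0.63, SE 0.20, adjusted p = 0.0155). With the even arrays alone neither change around birth was called (-0.39, adjusted p = 0.202, and 0.32, adjusted p = 0.341). A second CD46 probe set had stage means of 55.5, 35.1, 95.4 and 54.0, above background only at 28 dpn. It was called higher at 28 dpn than at 1 dpn (log2 1.18, adjusted p = 0.00256) and in no other comparison. Another, with means of 93.9, 76.4, 75.9 and 126, was called in none. CD46 lost its fall at birth with each array centred on its median (log2 -0.39), its rise to 28 dpn without replicates 2 or 3 of 1 dpn or replicate 3 of 28 dpn (log2 0.47 to 0.52, adjusted p 0.0518 to 0.0616), with each array centred on its median (log2 0.38) or in a fit of these 2 stages alone (log2 0.58), and its difference at 188 dpn without replicate 2 of 188 dpn (log2 -0.54, adjusted p = 0.066), with each array centred on its median (log2 -0.36) or with the mean of its probe sets (log2 -0.12). CD55 was dim, with stage means of 35.6, 59.3, 90.4 and 45.5, and did not pass the F test (adjusted p = 0.0842). It was called higher at 28 dpn than at 94 dpc, at least 1.15-fold (log2 1.07, SE 0.36, adjusted p = 0.026), and lost the call without replicates 2, 3 or 4 of 94 dpc or replicates 3 or 6 of 28 dpn (log2 0.90 to 1.02, adjusted p 0.0507 to 0.0708) or with the mean of its probe sets (log2 0.57).

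CD58, the ligand of the T cell adhesion receptor CD2, read 186 to 310.2 (median 259.9) at 94 dpc, 61.6 to 222 (median 83.2) at 1 dpn and 156 to 287 (median 209) at 28 dpn, and 51.8, 90.2, 103 and 137 at 188 dpn. Its signals at 1 dpn and 188 dpn were low and those at 94 dpc and 28 dpn high on average, and 3 of the 6 animals at 1 dpn lay below background, all of them low 5' arrays. CD58 fell 2.31-fold at birth (log2 -1.21, SE 0.25, adjusted p = 0.000774) and rose 2.01-fold by 28 dpn (log2 1.00, SE 0.25, adjusted p = 0.00594). The even arrays alone called neither (-0.66, adjusted p = 0.127, and 0.46, adjusted p = 0.344). From 28 dpn to 188 dpn it fell 2.14-fold without overlap (log2 -1.09, SE 0.28, adjusted p = 0.0132), and at 188 dpn it was 2.46-fold lower than at 94 dpc (log2 -1.30, SE 0.28, adjusted p = 0.000847). CD58 lost the call of the fall from 28 dpn without replicate 1 of 188 dpn (log2 -0.88, adjusted p = 0.0629) or with each array centred on its median (log2 -0.89). In RefSeq's pig assembly Sscrofa11.1, CD58 and CD2 lie with 1 gene between them.

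CD99, which leukocytes use to pass between endothelial cells, read 2322 to 3491 (median 2844) at 94 dpc, 1979 to 2843 (median 2590) at 1 dpn and 1848 to 2360 (median 2011) at 28 dpn, and 1333, 1336, 1363 and 1444 at 188 dpn. The 188 dpn animals lay within 1333 to 1444 and below all others. CD99 was 1.38-fold lower at 28 dpn (log2 -0.47, SE 0.14, adjusted p = 0.013) and 2.06-fold lower at 188 dpn than at 94 dpc (log2 -1.04, SE 0.15, adjusted p = 1.1e-05), and fell 1.49-fold between those ages (log2 -0.58, SE 0.15, adjusted p = 0.0161). CD99 lost the call of that last step with each array centred on its median (log2 -0.37). CD200, an inhibitory ligand for myeloid cells, read 119.8 to 216 (median 142) at 94 dpc, 34.8 to 136 (median 67.2) at 1 dpn and 99.1 to 151 (median 111) at 28 dpn, and 57.3, 59.4, 97.3 and 132 at 188 dpn. Its 94 dpc animals were the highest on average and 3 of the 6 at 1 dpn were below background. CD200 fell 1.99-fold at birth (log2 -0.99, SE 0.24, adjusted p = 0.00309), was 1.62-fold higher at 28 dpn than at 1 dpn (log2 0.70, SE 0.24, adjusted p = 0.0421) and was 1.69-fold lower at 188 dpn than at 94 dpc (log2 -0.75, SE 0.27, adjusted p = 0.0339). The even arrays gave -0.91 (adjusted p = 0.0615) and 0.62 (adjusted p = 0.25) for the steps around 1 dpn. CD200 lost its rise to 28 dpn without any 1 of 9 samples (replicate 1 of 94 dpc, replicates 3, 4 or 6 of 1 dpn or replicates 1, 2, 3, 4 or 6 of 28 dpn; log2 0.56 to 0.73, adjusted p 0.0503 to 0.1), after quantile normalization (log2 0.53), with each array centred on its median (log2 0.51), with trended and robust variances (log2 0.70) or in a fit of these 2 stages alone (log2 0.70). Its difference at 188 dpn lost the call without replicates 1, 2 or 6 of 94 dpc or replicates 2 or 3 of 188 dpn (log2 -0.61 to -0.75, adjusted p 0.0503 to 0.125), after quantile normalization (log2 -0.52), with each array centred on its median (log2 -0.48) or with trended and robust variances (log2 -0.75).

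CD47, which tells macrophages not to engulf a cell, read 352 to 435 (median 414) at 94 dpc, 444 to 804 (median 649) at 1 dpn and 459 to 655 (median 516) at 28 dpn, and 336, 357, 556 and 567 at 188 dpn. It was the member of this kind that rose at birth, 1.57-fold and without overlap (log2 0.65, SE 0.17, adjusted p = 0.00494), but on the even arrays the rise was 0.36 (adjusted p = 0.275). By its suffix (_s_at) the probe set can match several transcripts, and the other probe sets read lower at 1 dpn than at 94 dpc (means of 340.2 and 236, and of 161 and 97.4), neither called. With the mean of the probe sets the change was -0.27 (adjusted p = 0.381).

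CD164, a sialomucin of blood progenitors that is also found on muscle cells, read 1922 to 2686 (median 2283) at 94 dpc, 949 to 2180 (median 1394) at 1 dpn and 1653 to 2610 (median 2173) at 28 dpn, and 1720, 2062, 2312 and 2344 at 188 dpn. It was called lower at 1 dpn than at 94 dpc (log2 -0.66, SE 0.20, adjusted p = 0.0115) and higher at 28 dpn than at 1 dpn (log2 0.57, SE 0.20, adjusted p = 0.038), with overlap both times. Its probe sets disagreed: a second was called higher at 1 dpn (means of 1267 and 2257, log2 0.82, adjusted p = 9.09e-05) and lower at 28 dpn (log2 -0.64, adjusted p = 0.0017). Another followed the first, at log2 -1.24 (adjusted p = 0.0351) and 1.55 (adjusted p = 0.0137). No direction at birth can be given for the gene from these probe sets. CD164 lost the fall with each array centred on its median (log2 -0.40) or with the mean of its probe sets (log2 -0.36), and the rise without any 1 of 6 samples (replicates 2, 3 or 6 of 1 dpn or replicates 3, 5 or 6 of 28 dpn; log2 0.45 to 0.55, adjusted p 0.068 to 0.0933), with each array centred on its median (log2 0.38), with array weights (log2 0.55) or in a fit of these 2 stages alone (log2 0.57). Its 2 changes were -1.04 and 0.92 with GAPDH's 5'/3' ratio in the fit, and -0.93 (adjusted p = 0.00505) and 0.84 (adjusted p = 0.0154) with the even arrays alone.

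The 2 endothelial members went opposite ways by their brightest probe sets. CD34, a sialomucin of capillary endothelium and progenitor cells, was lower at each later stage than at 94 dpc. CD93, a lectin-like endothelial receptor, was higher at each. From 1 dpn to 28 dpn both went the other way, CD34 by log2 0.35 and CD93 by -0.46, neither called. CD34 read 894 to 1093 (median 1010) at 94 dpc, 319 to 636 (median 475) at 1 dpn and 421 to 768 (median 619.5) at 28 dpn, and 191, 230.1, 250 and 318 at 188 dpn. The 94 dpc animals were the highest and the 188 dpn animals the lowest, with no overlap of either with another stage, although the highest 188 dpn animal (318.1) came close to the lowest 1 dpn one (319.1). CD34 fell 2.13-fold at birth (log2 -1.09, SE 0.19, adjusted p = 0.000108), 2.35-fold from 28 dpn to 188 dpn (log2 -1.23, SE 0.21, adjusted p = 0.000572) and 3.92-fold from 94 dpc to 188 dpn (log2 -1.97, SE 0.21, adjusted p = 1.36e-07). These calls and that from 94 dpc to 28 dpn (log2 -0.74, adjusted p = 0.00439) held under all other settings and with each sample left out, and the fall at birth was -1.20 on the even arrays.

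CD93 read 208 to 274 (median 254) at 94 dpc, 287 to 976 (median 897) at 1 dpn and 304 to 1352 (median 484) at 28 dpn, and 804, 992, 1276 and 1393 at 188 dpn. Its 94 dpc animals all lay below every later one. CD93 was 2.74-fold higher at 1 dpn (log2 1.45, SE 0.31, adjusted p = 0.00098), 1.99-fold higher at 28 dpn (log2 0.99, SE 0.31, adjusted p = 0.0189) and 4.22-fold higher at 188 dpn than at 94 dpc (log2 2.08, SE 0.35, adjusted p = 5.3e-05). The even arrays gave 1.06 (adjusted p = 0.0972) for the change at birth. CD93 lost its higher level at 28 dpn without replicate 6 of 28 dpn (log2 0.72, adjusted p = 0.0522) or with the mean of its probe sets (log2 0.31). The rise from 28 dpn to 188 dpn, 2.12-fold with overlap (log2 1.08, SE 0.35, adjusted p = 0.046), lost its call without any 1 of 14 samples (replicates 1, 2, 3, 4, 5 or 6 of 94 dpc, replicates 1, 2, 3, 4 or 5 of 28 dpn or replicates 1, 2 or 3 of 188 dpn; log2 0.94 to 1.13, adjusted p 0.0545 to 0.123), with a pseudocount of 1 (log2 1.11), with the mean of its probe sets (log2 0.44) or in a fit of these 2 stages alone (log2 1.08). With the mean of its probe sets the change at birth was 0.23, not called, and that to 188 dpn was 0.75, still called. Its second probe set had stage means below background (45.8, 11.8, 29.8 and 21.4) and was called lower at 1 dpn than at 94 dpc (log2 -0.98, adjusted p = 0.0225).

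Of 16 measured endothelial genes without such a symbol, 9 fell and 0 rose from 94 dpc to 1 dpn, 9 rose and 0 fell from 1 dpn to 28 dpn, and 8 fell and 0 rose from 28 dpn to 188 dpn. On the even arrays the first 2 counts were 7 lower and 7 higher, and with centred arrays the second was 8 higher and 1 lower. The median changes were -0.76, 0.65 and -0.74, beside -0.08, 0.10 and -0.12 over all probe sets. At 188 dpn 9 were lower and 0 higher than at 94 dpc. PECAM1, an endothelial junction protein, had stage means of 4857, 1959, 3700 and 1001, the endothelial cadherin CDH5 4735, 1400, 2224 and 618, the receptor partner RAMP2 3582, 694, 2315 and 1044 and the tight junction protein CLDN5 1802, 436, 1205 and 395. All 4 were called lower at 1 dpn than at 94 dpc. Their summed signal was 16900 to 20000 at 94 dpc, 6450 to 7680 at 1 dpn, 10500 to 15000 at 28 dpn and 4800 to 6440 at 188 dpn over the list, and its part in the CD34 and CD93 results was not tested.

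Among the myeloid members, CD209 rose at birth and stayed high to 28 dpn, CD14 was higher at 28 dpn than at 94 dpc or 1 dpn, and CD163 was not called. Of the 7 myeloid members, 3 had a stage mean above background. Between 94 dpc and 188 dpn 0 of the 7 differed, beside 36.2% of all probe sets, but 2 were higher after quantile normalization or with centred arrays. CD209 is a lectin of macrophages and dendritic cells that binds mannose on microbes, CD14 hands bacterial lipopolysaccharide to TLR4, and CD163 takes up haemoglobin bound to haptoglobin. CD209 read 10.8 to 80.9 (median 70.5) at 94 dpc, 174 to 655 (median 394) at 1 dpn and 159 to 707 (median 493) at 28 dpn, and 63.1, 153, 171 and 172 at 188 dpn. All animals at 1 dpn and 28 dpn were above all at 94 dpc, where 3 of 6 lay below background. Its mean signal rose from 60.1 to 401 at birth (log2 2.43, SE 0.38, adjusted p = 3.43e-05) and was 475 at 28 dpn (log2 2.69, SE 0.38, adjusted p = 1.3e-05 against 94 dpc). The rise at birth was 1.61 (adjusted p = 0.0257) with the even arrays alone. CD209 fell 3.08-fold by 188 dpn (log2 -1.62, SE 0.42, adjusted p = 0.0135), and lost that call without replicate 3 of 188 dpn (log2 -1.32, adjusted p = 0.0699).

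CD14 read 43.2 to 113 (median 92.2) at 94 dpc, 17.5 to 194 (median 106) at 1 dpn and 164 to 275 (median 188) at 28 dpn, and 45.1, 98.2, 114 and 190 at 188 dpn. The 28 dpn animals lay above all 94 dpc ones and overlapped with the other stages. CD14 was 2.13-fold higher at 28 dpn than at 94 dpc (log2 1.09, SE 0.38, adjusted p = 0.0319) and 2.38-fold higher than at 1 dpn (log2 1.25, SE 0.38, adjusted p = 0.0194). The second difference was 0.42 (adjusted p = 0.49) on the even arrays. CD14 also lost the rise from 1 dpn without replicates 3 or 5 of 1 dpn (log2 0.97 to 0.99, adjusted p 0.0518 to 0.0544), after quantile normalization (log2 1.07), with each array centred on its median (log2 1.06), with the mean of its probe sets (log2 0.47) or in a fit of these 2 stages alone (log2 1.25). The difference from 94 dpc lost its call without replicates 1 or 2 of 94 dpc or replicates 4 or 5 of 28 dpn (log2 0.94 to 1.07, adjusted p 0.0535 to 0.0798) or with a pseudocount of 1 (log2 1.23). CD163 read 204 to 322 (median 285) at 94 dpc, 149 to 386 (median 291) at 1 dpn and 172 to 369 (median 256) at 28 dpn, and 295, 327, 328 and 579 at 188 dpn, with all stages overlapping (F test, adjusted p = 0.301).

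Of 18 measured macrophage and monocyte genes of other names, 9 rose and 0 fell from 1 dpn to 28 dpn, with a median change of 1.00 beside 0.10. On the even arrays 3 rose and 0 fell. From 94 dpc to 1 dpn 1 rose and 3 fell (2 and 2 with centred arrays, 0 and 1 on the even arrays), and from 28 dpn to 188 dpn 0 rose and 3 fell. The complement chain C1QC had stage means of 1313, 837, 3586 and 1249, the Fc receptor FCGR3A 650.2, 268, 1230 and 685 and the lysosomal protein LAPTM5 629, 207, 1038 and 494. The rises of these 3 genes from 1 dpn to 28 dpn were not called on the even arrays, where they measured 1.05 (adjusted p = 0.145), 1.17 (adjusted p = 0.131) and 1.64 (adjusted p = 0.0672) on the log2 scale. The list's summed signal was 5580 to 7020 at 94 dpc, 3550 to 5970 at 1 dpn, 5090 to 19400 at 28 dpn and 2950 to 12000 at 188 dpn. Its part in the results of CD14 and CD209 was not tested.

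The T cell members were dim and, where called, higher after birth. CD3D, CD3E, CD3G and CD247 are chains of the T cell receptor complex, CD4 and CD8A with CD8B its coreceptors and CD2 an adhesion receptor. Of these 8, 5 were called higher at 28 dpn than at 94 dpc and 0 lower (4 after quantile normalization), beside 13.1 and 17.2% of all probe sets. From 94 dpc to 1 dpn 2 were called higher, and 0 on the even arrays. From 1 dpn to 28 dpn 2 were called higher, and 1 on the even arrays, and 0 were called from 28 dpn to 188 dpn. Between 94 dpc and 188 dpn 0 were called, beside 36.2% of all probe sets, but 2 were higher with centred arrays.

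CD3D read 17.5 to 58.8 (median 43.4) at 94 dpc, 6.57 to 157 (median 29.3) at 1 dpn and 60.6 to 206 (median 134) at 28 dpn, and 47.5, 95.6, 100.2 and 132 at 188 dpn. Every 94 dpc animal was below background and 5 of 6 at 28 dpn were above it. CD3D was at least 1.60-fold higher at 28 dpn than at 94 dpc, without overlap (log2 1.29, SE 0.41, adjusted p = 0.0219), and lost the call without replicate 5 of 94 dpc or replicate 5 of 28 dpn (log2 1.14 to 1.15, adjusted p 0.0529 to 0.0547). From 1 dpn to 28 dpn the mean rose from 61.3 to 129.6 (log2 1.26, SE 0.41, adjusted p = 0.031), or by log2 0.95 on the even arrays (adjusted p = 0.241). CD3D lost that rise without any 1 of 8 samples (replicates 3, 4, 5 or 6 of 1 dpn or replicates 2, 4, 5 or 6 of 28 dpn; log2 1.00 to 1.26, adjusted p 0.0501 to 0.086), after quantile normalization (log2 1.08), with each array centred on its median (log2 1.07) or in a fit of these 2 stages alone (log2 1.26).

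CD3G read 12.2 to 64.8 (median 53.1) at 94 dpc, 24.2 to 163 (median 97.1) at 1 dpn and 75.8 to 119.7 (median 87.4) at 28 dpn, and 53.2, 56.8, 65.8 and 105 at 188 dpn. All 6 fetal animals were below background and all 6 at 28 dpn above it, without overlap. CD3G was at least 1.28-fold higher at 28 dpn than at 94 dpc (log2 0.91, SE 0.30, adjusted p = 0.0248) and at least 1.21-fold higher at 1 dpn (log2 0.83, SE 0.30, adjusted p = 0.0383), the latter log2 0.22 with the even arrays alone (adjusted p = 0.755). CD3G lost its change at birth without any 1 of 8 samples (replicates 1, 4 or 5 of 94 dpc or replicates 1, 2, 3, 4 or 5 of 1 dpn; log2 0.62 to 0.85, adjusted p 0.0514 to 0.113), with a pseudocount of 1 (log2 1.05), with trended and robust variances (log2 0.83) or in a fit of these 2 stages alone (log2 0.83). The difference at 28 dpn lost its call without replicates 4 or 5 of 94 dpc or replicates 2 or 5 of 28 dpn (log2 0.70 to 0.86, adjusted p 0.0507 to 0.0742). CD3E, with stage means of 41.7, 59.3, 79.6 and 32.4, was not called (F test, adjusted p = 0.41). CD3D lies next to CD3E and to CD3G in Sscrofa11.1.

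CD8A read 14.1 to 65.6 (median 27.3) at 94 dpc, 5.27 to 94.7 (median 22.8) at 1 dpn and 40.1 to 176 (median 123) at 28 dpn, and 17.2, 25.7, 54.1 and 64.9 at 188 dpn. At 28 dpn 4 of 6 animals were above background, at 94 dpc and 188 dpn 0. CD8A was at least 1.32-fold higher at 28 dpn than at 94 dpc (log2 1.35, SE 0.41, adjusted p = 0.0163), and its mean rose from 36.7 at 1 dpn to 112 at 28 dpn (log2 1.39, SE 0.41, adjusted p = 0.0177). That rise was 2.13 (adjusted p = 0.00553) with the even arrays alone. CD8A lost it without replicate 2 of 1 dpn (log2 1.19, adjusted p = 0.0504) or in a fit of these 2 stages alone (log2 1.39). Its neighbour CD8B read 50.5 to 97.2 (median 74.1) at 94 dpc, 80.8 to 187 (median 124) at 1 dpn and 82.1 to 155 (median 112) at 28 dpn, and 43.4, 72.5, 97.4 and 103 at 188 dpn, with all stages overlapping. CD8B was 1.58-fold higher at 1 dpn than at 94 dpc (log2 0.66, SE 0.21, adjusted p = 0.0198) and 1.47-fold higher at 28 dpn (log2 0.56, SE 0.21, adjusted p = 0.049). The even arrays gave 0.27 (adjusted p = 0.52) for the first. CD8B lost the difference at 1 dpn without replicate 2 of 94 dpc or replicate 5 of 1 dpn (log2 0.55 to 0.58, adjusted p 0.0514 to 0.0527). That at 28 dpn lost its call without any 1 of 14 samples (replicates 2, 3, 4, 5 or 6 of 94 dpc, replicates 2 or 3 of 1 dpn, replicates 1, 2, 4, 5 or 6 of 28 dpn or replicates 2 or 4 of 188 dpn; log2 0.48 to 0.58, adjusted p 0.0502 to 0.114), after quantile normalization (log2 0.47) or with trended and robust variances (log2 0.56).

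CD2, below background in all but 1 sample, had a median signal of 2.73 at 94 dpc and 28.5 at 28 dpn and was called (log2 1.27, SE 0.35, adjusted p = 0.0087). CD247 was not called by its brightest probe set (stage means of 35.7, 33.8, 63.3 and 51.7; F test, adjusted p = 0.202). A second CD247 probe set read 24.8, 18.1, 104 and 21.6. It was called higher at 28 dpn than at 94 dpc (log2 1.61, adjusted p = 0.000306) or 1 dpn (log2 1.88, adjusted p = 0.0001), and lower at 188 dpn than at 28 dpn (log2 -1.75, adjusted p = 0.00158). Another, below background in all 22 samples, was called higher at 28 dpn than at 94 dpc (log2 1.05, adjusted p = 0.00719). A further one was not called there (log2 1.03, adjusted p = 0.0613).

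**Figure D3:**
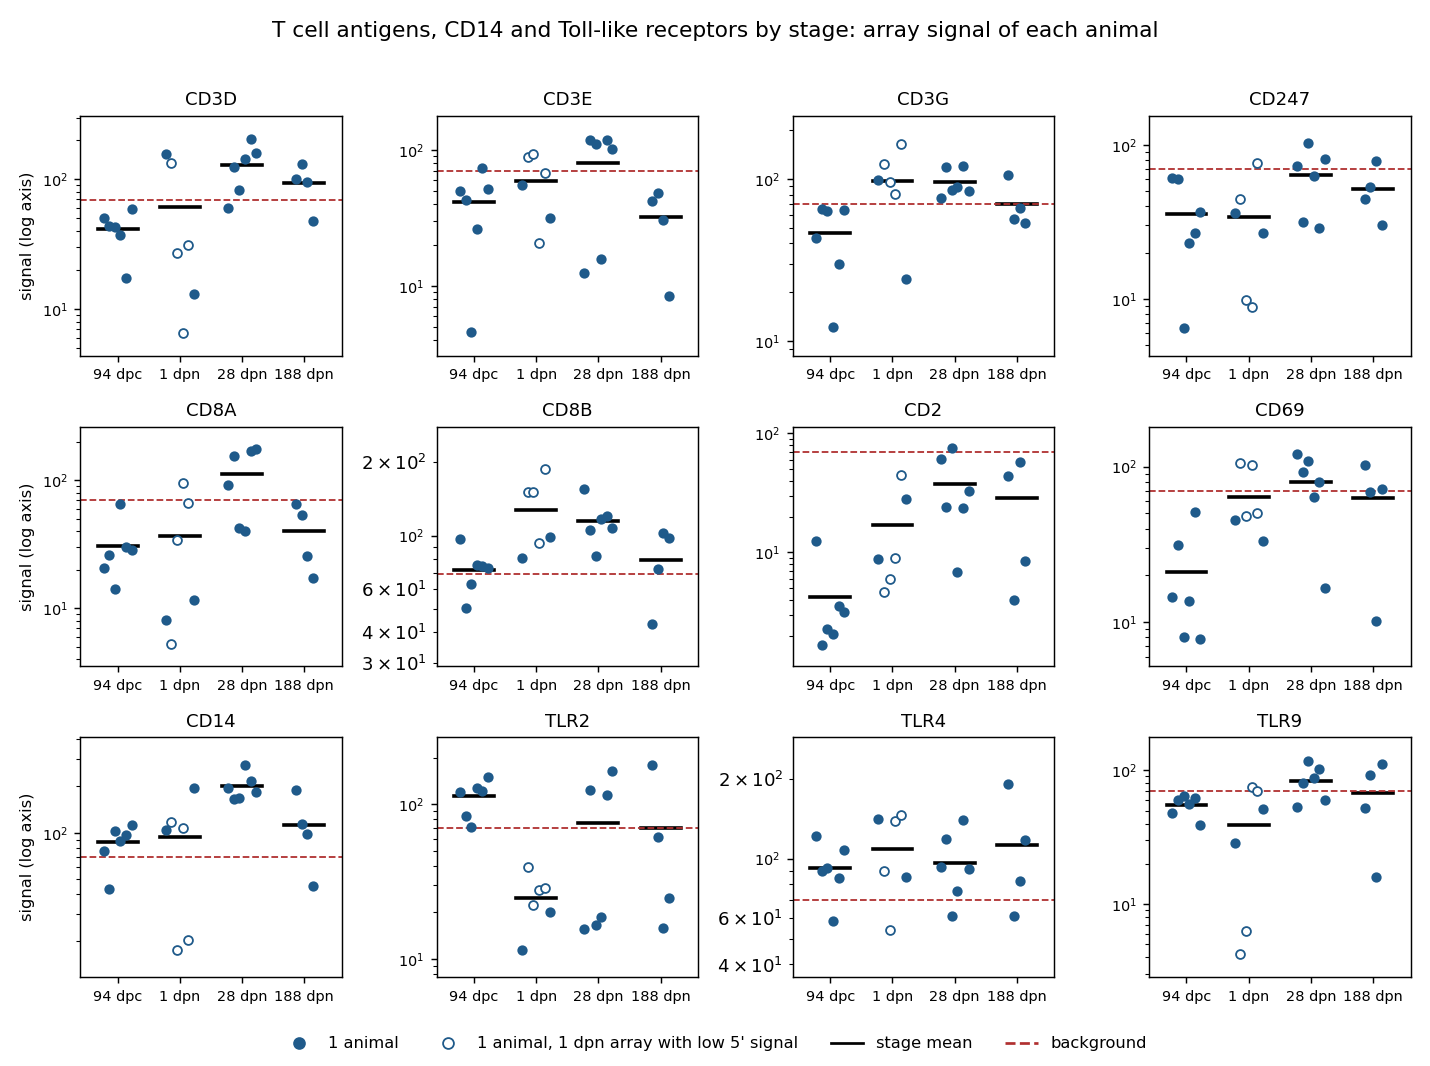
Signal (log axis, arbitrary array units) of 12 dimmer members, the T cell genes CD3D, CD3E, CD3G, CD247, CD8A, CD8B and CD2, then CD69, CD14, TLR2, TLR4 and TLR9, in each of the 22 samples by stage; open circles are the 4 arrays at 1 dpn with a low 5' GAPDH signal, the short bars are stage means and the dashed line is the background of 69.7. All fetal samples of CD3D, CD3G and CD8A lie under the line, most 28 dpn samples above it, and all 1 dpn samples of TLR2 are below it.

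Among 9 measured T cell and NK cell genes of other names, 3 were higher and 0 lower at 28 dpn than at 94 dpc, with a median change of 0.68 beside 0.02. The transcription factor GATA3 had stage means of 77.1, 107, 160.1 and 115, the interleukin 7 receptor IL7R 38.3, 110.5, 119 and 108 and the kinase LCK 27.8, 41.7, 107 and 29.2. Of the 9, 6 had a mean below background at 94 dpc and 3 at 28 dpn. The summed signal was 435 to 708 at 94 dpc, 471 to 811 at 1 dpn, 583 to 1260 at 28 dpn and 572 to 779 at 188 dpn. Of 9 measured genes of leukocytes in general, 2 were higher and 0 lower at 28 dpn than at 94 dpc, among them PTPRC, the leukocyte phosphatase CD45, at 36.1, 42.3, 101 and 88.3. The part of these cells in the T cell results was not tested.

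The activation and costimulation members changed singly. CD83, a marker of mature dendritic cells, fell at birth and was highest at 188 dpn. CD69, an early activation antigen, was called higher at 1 dpn and 28 dpn than at 94 dpc, and CD80, a ligand of CD28, at 1 dpn alone. CD83 read 656 to 1066 (median 971) at 94 dpc, 66.2 to 713 (median 427) at 1 dpn and 272 to 746 (median 409.6) at 28 dpn, and 1078, 1121, 1485 and 2128 at 188 dpn. The 188 dpn animals lay above all others. CD83 rose 3.32-fold from 28 dpn to 188 dpn (log2 1.73, SE 0.43, adjusted p = 0.0099). That rise was called under all other settings and with each sample left out. In a second CD83 probe set, with stage means of 96.1, 68.8, 144 and 326, it was not called (log2 1.14, adjusted p = 0.113), while the difference between 94 dpc and 188 dpn was (log2 1.57, adjusted p = 0.00905).

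CD83 was 2.38-fold lower at 1 dpn than at 94 dpc (log2 -1.25, SE 0.38, adjusted p = 0.015) and 2.11-fold lower at 28 dpn (log2 -1.07, SE 0.38, adjusted p = 0.0375), with overlap both times. Replicate 1 of 1 dpn, an even array, read 66.2, and without it the change at birth was -0.81 (adjusted p = 0.019), against -1.93 on the even arrays. The second probe set was not called lower at 1 dpn than at 94 dpc (adjusted p = 0.203) and read log2 0.43 higher at 28 dpn (adjusted p = 0.46). CD83 lost the call at birth after quantile normalization (log2 -0.99) or with each array centred on its median (log2 -0.99). The difference at 28 dpn lost its call without any 1 of 8 samples (replicates 1, 3, 5 or 6 of 94 dpc or replicates 1, 2, 3 or 4 of 28 dpn; log2 -0.96 to -1.10, adjusted p 0.0506 to 0.0814), after quantile normalization (log2 -0.91), with a pseudocount of 1 (log2 -1.10) or with the mean of its probe sets (log2 -0.32).

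CD69 read 7.81 to 51.1 (median 14.1) at 94 dpc, 33.5 to 106 (median 49.2) at 1 dpn and 16.6 to 120.4 (median 86.0) at 28 dpn, and 10.2, 68.5, 72.2 and 102 at 188 dpn. All 94 dpc animals were below background, and at least 2 of each later stage were above it. CD69 was at least 1.02-fold higher at 28 dpn than at 94 dpc (log2 1.35, SE 0.38, adjusted p = 0.00929), and its mean was 21.1 at 94 dpc and 64.2 at 1 dpn (log2 1.14, SE 0.38, adjusted p = 0.025). The even arrays alone gave 0.68 (adjusted p = 0.421). CD69 lost the call at birth without replicates 3 or 6 of 94 dpc or replicates 2 or 4 of 1 dpn (log2 1.00 to 1.03, adjusted p 0.057 to 0.0627). CD80 read 52.0 to 84.7 (median 60.4) at 94 dpc, 72.5 to 165 (median 139) at 1 dpn and 53.1 to 129 (median 98.0) at 28 dpn, and 56.4, 77.8, 98.8 and 104 at 188 dpn. It was dim before birth, with 5 of 6 animals below background, and its mean rose from 63.9 to 127 at 1 dpn (log2 0.80, SE 0.22, adjusted p = 0.00739), or by log2 0.61 with the even arrays alone (adjusted p = 0.133). Against 94 dpc, CD80 was not called at 28 dpn (log2 0.41, adjusted p = 0.171) or 188 dpn (log2 0.31, adjusted p = 0.359).

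CD53 read 259.5 to 320.1 (median 301) at 94 dpc, 128 to 365 (median 265) at 1 dpn and 209.7 to 808 (median 415) at 28 dpn, and 125, 192, 208 and 362 at 188 dpn, and was not called (F test, adjusted p = 0.0642). Its second probe set, with stage means of 197, 71.8, 342 and 169.9, was called lower at 1 dpn than at 94 dpc (log2 -1.68, adjusted p = 0.0049) and higher at 28 dpn than at 1 dpn (log2 2.33, adjusted p = 0.000504). CD40, a receptor for T cell help, read 79.8 to 129 (median 113) at 94 dpc, 75.1 to 187 (median 127) at 1 dpn and 109 to 241 (median 155) at 28 dpn, and 126, 135, 138 and 140 at 188 dpn, above background in all 22 samples and not called (F test, adjusted p = 0.302). CD86, the other ligand of CD28, had stage means of 31.4, 34.8, 77.3 and 66.8 and was not called (F test, adjusted p = 0.148). CD38, an NAD-consuming ectoenzyme, had medians of 12.0 at 94 dpc and 66.0 at 28 dpn (log2 1.30, SE 0.38, adjusted p = 0.0109), all means below background.

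Of 13 listed B cell genes of other names, 2 were found under their symbols. Of these, the transcription factor IRF8 had stage means of 283, 128, 294 and 180.2 and the antibody joining chain JCHAIN 66.9, 233, 164 and 213. IRF8 was called lower at 1 dpn than at 94 dpc and higher at 28 dpn than at 1 dpn, and JCHAIN was called higher at 1 dpn than at 94 dpc. IRF8's rise with the even arrays alone was 1.02 (adjusted p = 0.0539). Of 5 measured granulocyte genes 0 were called in any of the 5 comparisons, though with centred arrays 1 was called higher from 94 dpc to 1 dpn. After quantile normalization or with centred arrays 1 was called lower from 1 dpn to 28 dpn.

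The Toll-like receptors were dim, and 3 of the 6 had a stage mean above background. In the F test 1 of the 6 was called, beside 51.4% of all probe sets and 65.8% of those with a stage mean above background. TLR2 binds bacterial lipoproteins together with TLR1 or TLR6, TLR4 binds lipopolysaccharide, TLR8 single-stranded RNA and TLR9 unmethylated DNA. TLR2 read 71.1 to 149 (median 120.4) at 94 dpc, 11.4 to 39.4 (median 25.1) at 1 dpn and 15.7 to 164 (median 66.6) at 28 dpn, and 15.9, 24.8, 61.8 and 180.3 at 188 dpn. All 6 fetal animals were above background and all 6 at 1 dpn below it, and the later stages spread over both. TLR2 was at least 1.46-fold lower at 1 dpn than at 94 dpc (log2 -1.65, SE 0.45, adjusted p = 0.00659). This change was also called with the even arrays alone (-2.00 on the log2 scale, adjusted p = 0.0422), under all other settings that included TLR2 and with each sample left out. The run of only brighter probe sets did not include TLR2.

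TLR4 read 58.2 to 121 (median 90.9) at 94 dpc, 53.7 to 146 (median 114) at 1 dpn and 60.9 to 140.2 (median 92.4) at 28 dpn, and 60.8, 82.4, 118 and 191 at 188 dpn, with 1 animal per stage below background and no stage apart (F test, adjusted p = 0.897). TLR9 read 39.0 to 64.7 (median 57.9) at 94 dpc, 4.26 to 75.6 (median 40.2) at 1 dpn and 52.9 to 117 (median 83.7) at 28 dpn, and 15.8, 52.5, 92.0 and 111 at 188 dpn. Its F test was not passed (adjusted p = 0.103), but the difference between means of 39.3 at 1 dpn and 83.5 at 28 dpn was called (log2 1.05, SE 0.36, adjusted p = 0.0405), and it was 0.82 (adjusted p = 0.173) on the even arrays. TLR9 lost this call without any 1 of 7 samples (replicates 1, 2 or 3 of 1 dpn or replicates 2, 3, 4 or 5 of 28 dpn; log2 0.80 to 1.05, adjusted p 0.0559 to 0.112), after quantile normalization (log2 0.86), with each array centred on its median (log2 0.85), with a pseudocount of 1 (log2 1.64) or in a fit of these 2 stages alone (log2 1.05). TLR1, TLR6 and TLR8 had stage means of 22.6 to 47.7, 5.34 to 20.5 and 25.3 to 47.0. TLR1 and TLR6 are neighbours in Sscrofa11.1.

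The genes that carry the Toll-like receptor signal were brighter than background in most cases and changed singly. Of 13 measured adaptors, kinases and transcription factors, 2 rose and 1 fell from 94 dpc to 1 dpn, 2 rose and 2 fell from 1 dpn to 28 dpn, and 3 rose and 0 fell from 28 dpn to 188 dpn, with median changes of 0.19, 0.11 and -0.16. With centred arrays the counts were 4 and 0, 0 and 2, and 4 and 0, and the last 2 medians turned to -0.09 and 0.04. On the even arrays 2 rose and 2 fell at birth, and 1 rose and 0 fell from 1 dpn to 28 dpn. NFKBIA, the inhibitor of NF-kB, had stage means of 2720, 2906, 1357 and 1334 and was lower at 28 dpn than at 94 dpc (log2 -1.01, adjusted p = 0.00295). IRAK1, the receptor-linked kinase, had means of 1409, 2237, 1535 and 2664 and was higher at 188 dpn than at 94 dpc (log2 0.91, adjusted p = 0.000421).

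TOLLIP, which damps this signal, had stage means of 1109, 971, 1533 and 2549 and was higher at 188 dpn than at 94 dpc (log2 1.20, adjusted p = 0.000628). Its rise from 1 dpn to 28 dpn (log2 0.76) was -0.01 on the even arrays (adjusted p = 0.992). IRF3, which drives interferon genes, had means of 673, 437, 442 and 305 and was lower at 188 dpn than at 94 dpc (log2 -1.10, adjusted p = 0.00033).

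Of 6 measured coreceptors and chaperones, 1 rose and 3 fell from 94 dpc to 1 dpn, and 0 rose and 2 fell on the even arrays. From 1 dpn to 28 dpn 1 rose and 1 fell, with 0 called on the even arrays, and 0 were called from 28 dpn to 188 dpn. The Toll-like receptor chaperone HSP90B1 fell from a mean of 1955 to 902 (log2 -1.19, adjusted p = 0.00013) and the nuclear protein HMGB1, a ligand when released, from 10590 to 7481 (log2 -0.54, adjusted p = 0.0188). The second change was -0.28 and not called with centred arrays. LY96, which holds lipopolysaccharide for TLR4, had stage means of 237, 468, 237 and 205, called higher at 1 dpn than at 94 dpc (log2 0.92) and lower again at 28 dpn (log2 -0.94). On the even arrays these changes were 0.50 (adjusted p = 0.387) and -0.52 (adjusted p = 0.397). LY86, the partner of CD180, had means of 126, 44.0, 141 and 92.4, called lower at 1 dpn than at 94 dpc and higher at 28 dpn than at 1 dpn. The even arrays alone called neither (-0.96, adjusted p = 0.255, and 0.89, adjusted p = 0.327).

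Of 16 measured cytokines and other response genes, 1 rose and 3 fell at birth, 5 rose and 0 fell by 28 dpn, and 0 rose and 4 fell by 188 dpn, with median changes of -0.12, 0.35 and -0.38. After quantile normalization, and with centred arrays, these counts were 3 and 3, 3 and 1, and 0 and 2, and with centred arrays the median at birth turned to 0.14. On the even arrays 0 rose and 3 fell at birth, and 1 rose and 0 fell from 1 dpn to 28 dpn. The chemokine CCL4 had stage means of 459, 171, 649 and 127 and was called in each step (log2 -1.32, 1.68 and -2.08), on the even arrays at -1.37 and 1.73 too. CCL2, a monocyte chemokine, had means of 468, 198, 378 and 188 and was called in each step (log2 -1.20, 0.84 and -1.04), though from 1 dpn to 28 dpn it was 0.90 on the even arrays (adjusted p = 0.192). Neither of CCL2's later steps was called after quantile normalization (log2 0.70 and -0.91) or with centred arrays (log2 0.64 and -0.83). IL18 had means of 734, 278, 137 and 319 and was lower at every later stage than at 94 dpc. IL1B had means of 235, 293, 361 and 383 and was higher at 28 dpn (log2 0.60) and 188 dpn (log2 0.67) than at 94 dpc.

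Antigens that carry a CD number but another gene symbol were counted beside the members. Of 25 measured, 3 rose and 11 fell from 94 dpc to 1 dpn, 5 rose and 1 fell by 28 dpn, and 0 rose and 10 fell by 188 dpn. On the even arrays 0 rose and 12 fell, and then 5 rose and 0 fell. With centred arrays the counts were 4 and 8, 4 and 3, and 0 and 7. The median changes were -0.48, 0.34 and -0.64. The called ones with the highest mean signals were the growth factor receptor PDGFRB, with stage means of 5234, 7600, 3564 and 1455, the integrin chain ITGB1 with 4783, 2187, 2805 and 3052, the fibroblast antigen THY1 with 5058, 2226, 2746 and 2437, and PECAM1, which is also among the endothelial genes.

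The changes that involve 1 dpn were compared with all 6 arrays and with the 2 even ones. Of the 18 changes called from 94 dpc to 1 dpn, 8 were called on the even arrays: the falls of CD9, CD34, CD81, CD82, CD83 and TLR2, the rise of CD209 and the lower signal of the CD164 probe set used. Of the 11 called from 1 dpn to 28 dpn, 5 were: the rises of CD8A, CD9 and CD82, the fall of CD63 and the higher signal of that CD164 probe set. For CD164 another probe set was called the opposite way in both steps, so neither is a direction of the gene. All 18 and all 11 kept their sign. The 2 fits shared the even arrays and all arrays of the other stages, so agreement in sign is partly built in. Fewer arrays are also a weaker test.

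**Figure D4:**
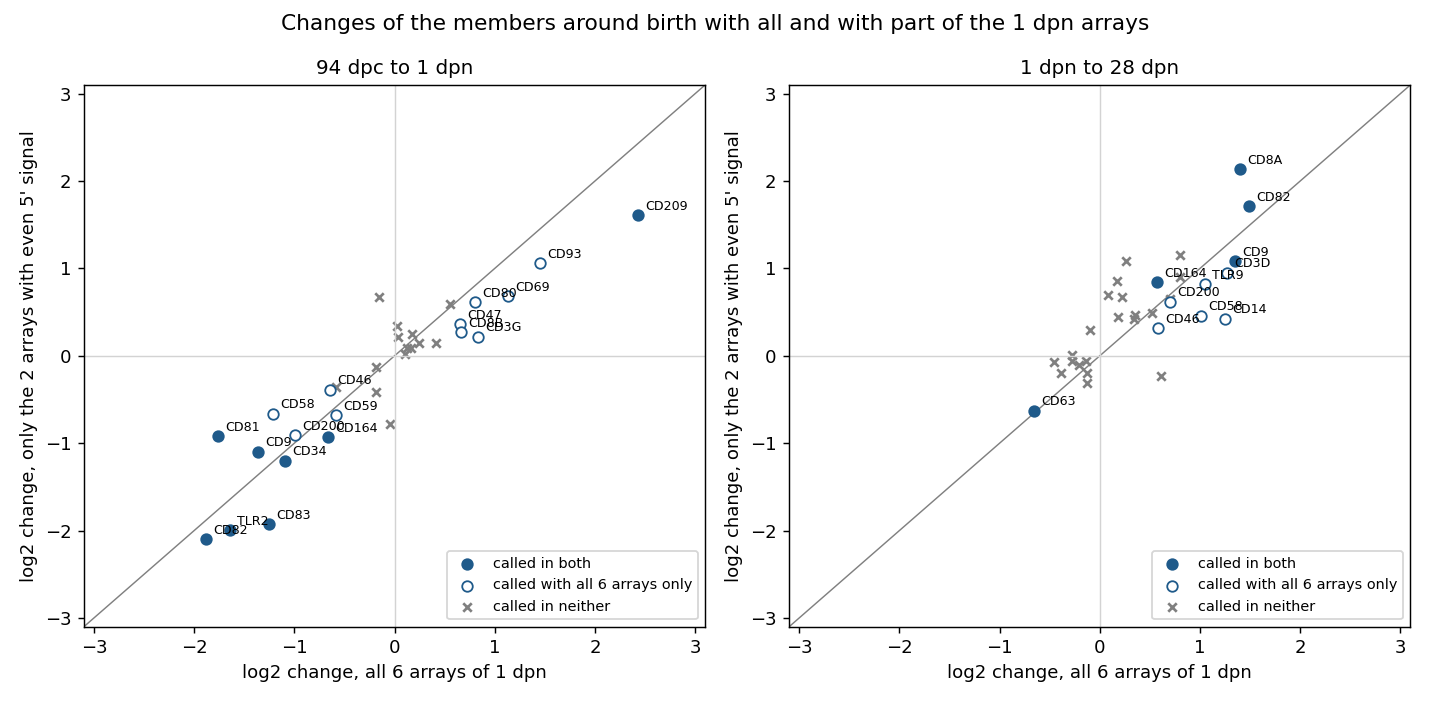
Log2 change with all 6 arrays at 1 dpn (horizontal axis) against that with the 2 arrays of even GAPDH signal (vertical axis), in 1 panel for 94 dpc to 1 dpn and 1 for 1 dpn to 28 dpn. Each point is 1 of the 32 members with a stage mean above background, coloured by where it was called, and the diagonal marks equal change. CD82 is among the points farthest from 0 in both panels, at -1.88 and 1.49 with all arrays and -2.10 and 1.71 with the even ones.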

How the data were processed

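The authors deposited 1 linear intensity value per probe set for each porcine Affymetrix array. The submitters' processing notes name GCOS 1.1.1. The labels' protocols describe TRI Reagent extraction, DNase treatment, RNeasy clean-up and biotinylated cRNA from 0.5 ug of RNA. All 22 arrays had a mean of 500 once 2% of values were trimmed from each end, so no normalization was added. The deposited intensities were analysed as log2(signal + 16), where folds of dim genes come out too small. From the 24123 probe sets, the 124 controls were dropped. The comparisons used limma 3.58.1 (R 4.3.3; statmod 1.5.0), with a mean per stage over all samples, an F test, 5 contrasts and Benjamini-Hochberg adjustment over 23999 probe sets. A change was called at an adjusted p under 0.05. The number of arrays limits the precision.

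Background was the 95th percentile of 23 absent control probe sets. Where all signals of the dimmer stage lay below it, the fold is given as at least the brighter stage's mean log2(signal + 16) over that of background; where only its mean did, both means are given. Symbols came from the platform annotation, updated through RefSeq, which held the identifiers of all 45 members. Members called in the F test are given with values, as are the 5 brightest of the uncalled and, of each list, up to 4 called genes with the highest mean signal. CD55, CD3E, CD86 and TLR9, CD2, CD38 and CD247, the second probe sets and genes named for a limit were added after their values were seen. The members and lists were chosen with earlier results of these data known.

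Alternatives were quantile normalization, centring on the array median, array weights, trended and robust variances, a pseudocount of 1, only brighter probe sets, only those above background, the mean of a gene's probe sets, only the even 1 dpn arrays, the GAPDH ratio as a covariate, only the stages compared, and each sample left out. The fit was tested on simulated data. Figures were drawn with matplotlib 3.10.9.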

Additional observations from a re-analysis of the deposited data

Results flagged for a closer look

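In 28 members with values, 112 stage groups of 4 or 6 animals were searched for an animal far from the others, by the gap to its nearest neighbour over the range of the group. In 9 groups 1 animal stood apart, where chance alone gives about 1 in 20 groups. CD209 had 3 of them: the lowest signals were 10.8 in replicate 1 at 94 dpc, 159 in replicate 1 at 28 dpn and 63.1 in replicate 3 at 188 dpn, each below the other animals of its stage. At 1 dpn, replicate 1 was lowest for CD82 (171) and CD83 (66.2), replicate 2 for CD53 (128) and replicate 3 for CD163 (149). CD69 was lowest in replicate 6 at 28 dpn, at 16.6. CD163 was highest in replicate 1 at 188 dpn, at 579.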

How the results depend on the processing

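Of the 62 changes called for members over the 5 comparisons, 26 were called under every other setting that included their probe set and with each sample left out. The run of brighter probe sets included 41 of the 62, and that of members above background 60. In at least 1 run with a sample left out 25 lost the call, and 16 lost it on the even 1 dpn arrays. Between any stages 25 members differed, and 15 with only probe sets brighter than the median one; leaving out 1 sample gave 20 to 26. From 94 dpc to 1 dpn the count of 18 became 8 on the even arrays and 9 with the GAPDH ratio as a covariate, and 16 to 18 without 1 sample. From 1 dpn to 28 dpn the count of 11 became 7 with centred arrays, 7 with brighter probe sets, 5 on the even arrays, 5 with the covariate and 4 in a fit of these stages alone. Without 1 sample it was 5 to 11, namely 5 when replicate 3 of 1 dpn was left out and 7 when replicate 2 of 1 dpn or replicate 3 of 28 dpn was. From 28 dpn to 188 dpn the count of 7 became 4 with centred arrays and 4 to 8 without 1 sample, the 4 without replicate 3 of 188 dpn. From 94 dpc to 28 dpn 17 became 8 with brighter probe sets and 13 to 17 without 1 sample, and from 94 dpc to 188 dpn 9 became 8 to 11. Fewer probe sets or samples enter the brighter, even and left-out runs; the cause of the other shifts was not tested. CD47 alone reversed, to -0.27 from 94 dpc to 1 dpn with the mean of its probe sets. No paired analysis was possible because replicate numbers were given in accession order. Members below background at every stage allow no fold.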
